A study of Mesocricetus auratus with 24 samples.

Results

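The 90 potassium and HCN channel genes described here were measured on a mouse whole-transcript array in the inferior colliculus, the midbrain auditory nucleus, of hamsters, where 19938 genes were tested in all. They were chosen by name, not by any difference between groups, although earlier results of these data were known. Every probe set with a single gene symbol of the form Kcn or Hcn plus any further letters and a number was taken, and the brightest probe set was kept for the 3 genes with more than 1 (Kcna2, Kcnh8 and Kcnma1). They fall into 21 families, among them 15 Kcnj, 14 Kcnk, 8 Kcna, 3 Kcnc, 3 Kcnq and 3 Hcn genes. Potassium channels set the resting potential of neurons, shorten action potentials and limit how fast a cell can fire, and the hyperpolarization-activated cation channels encoded by the Hcn genes open on the opposite voltage change and depolarise the cell. In the auditory midbrain, channels of the Kcnc family let neurons follow rapid sound trains, and channels of the Kcna family sharpen the timing of single spikes. Variants in several of these genes cause inherited epilepsies, and mice without Kcna1 have spontaneous seizures.

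Each of the 4 groups held 6 animals of 16 weeks, with 1 array per animal: stimulated GASH:Sal, unstimulated GASH:Sal, stimulated Syrian and unstimulated Syrian hamsters. GASH:Sal is the genetic audiogenic seizure hamster kept at the University of Salamanca, a line in which sound triggers seizures, and the control Syrian hamster is the strain it was set against. Stimulated animals had received the auditory stimulation and the colliculus was taken after 60 min, while the label of each unstimulated animal gives no exposure. A protocol text shared by all animals speaks of sound exposure for the controls as well, so the grouping here rests on the label of each animal. The animals are also named in 2 styles, called here label series B (replicates 4 to 6 of every group) and label series A (replicates 1 to 3), with 12 arrays each. The sources used here do not say what these styles mean, and values within each are given beside the differences. The values are log2 signals, so a difference of 1 is a doubling, and the number of arrays, not a read depth, limits the precision. Since hamster RNA was read with mouse probes, a signal can be compared between arrays for the same gene but not between genes.

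Since brightness depends on the probe, the signals of marker genes describe the arrays but do not settle which tissue was taken. The 7 markers of inferior colliculus neurons lay between the 62.7th (Tfap2b) and the 98.8th percentile of signal over all genes (Meis2). Cerebellar markers ran from the 14.5th (Neurod1) to the 87.1st (Calb1), and the 3 measured telencephalic markers from the 1.81st (Neurod6) to the 82.4th (Emx1). The channel genes lay at a median percentile of 62.4, from 15.4 for Kcnj2 to 96.2, with 34 among the brightest 4985 genes and 8 among the dimmest 4984. Their mean signal per array was 5.39 ± 0.056 in stimulated GASH:Sal, 5.36 ± 0.045 in unstimulated GASH:Sal, 5.40 ± 0.055 in stimulated Syrian and 5.38 ± 0.018 in unstimulated Syrian animals (SD, n = 6 each). A pair of arrays stood apart from the rest: stimulated Syrian 4 and unstimulated GASH:Sal 6 each had a median correlation of 0.969 with the other arrays of their group, against 0.981 for the next lowest. Leaving out both turned the sign of 13 members for sound in GASH:Sal, 19 for sound in Syrian, 12 for strain in stimulated and 11 for strain in unstimulated animals, the largest of these differences being 0.10 in size. For some values below, those without this pair are also given, marked "without both arrays". Other values may have moved as well. In bulk tissue, fewer cells of a type and less RNA per cell cannot be told apart.

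No channel gene passed the threshold for strain, for sound or for the interaction of both. In each of the 7 comparisons, 0 of the 90 members had an adjusted p under 0.05 (limma, Benjamini-Hochberg over 19938 genes), and the lowest was 0.422 for Kcnt2. The share of all genes called was 0% in the 4 comparisons of single groups and in the interaction, 0.01% for strain averaged over both sound conditions (Arl15 and Rasgrf2) and 0.00502% for sound averaged over both strains (Fos, the immediate-early gene). No member had groups free of overlap in any of the 4 comparisons of single groups, where 0.226% of all genes did so for sound in GASH:Sal, 0.291% for sound in Syrian, 0.271% for strain in unstimulated and 0.251% for strain in stimulated animals.

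The intervals bound how large a difference in array signal could have been. They do not bound the difference in RNA amount, since hamster RNA was read with mouse probes. For each of the 90 genes the 95% interval of the strain difference averaged over both sound conditions lay within 1.5-fold, and so did that of the sound difference averaged over both strains. The farthest bound of any member was 1.30-fold for strain and 1.25-fold for sound. Within 1.2-fold lay the intervals of 77 members for strain and 82 for sound. For the 4 comparisons of single groups the farthest bounds were 1.43-fold (sound, GASH:Sal), 1.39-fold (sound, Syrian), 1.40-fold (strain, unstimulated) and 1.44-fold (strain, stimulated). The interaction, the sound difference in GASH:Sal less that in Syrian animals, was less well bounded, with 87 of 90 intervals within 1.5-fold and a farthest bound of 1.78-fold. These intervals are taken gene by gene and are not adjusted for the number of genes.

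**Figure D1:**
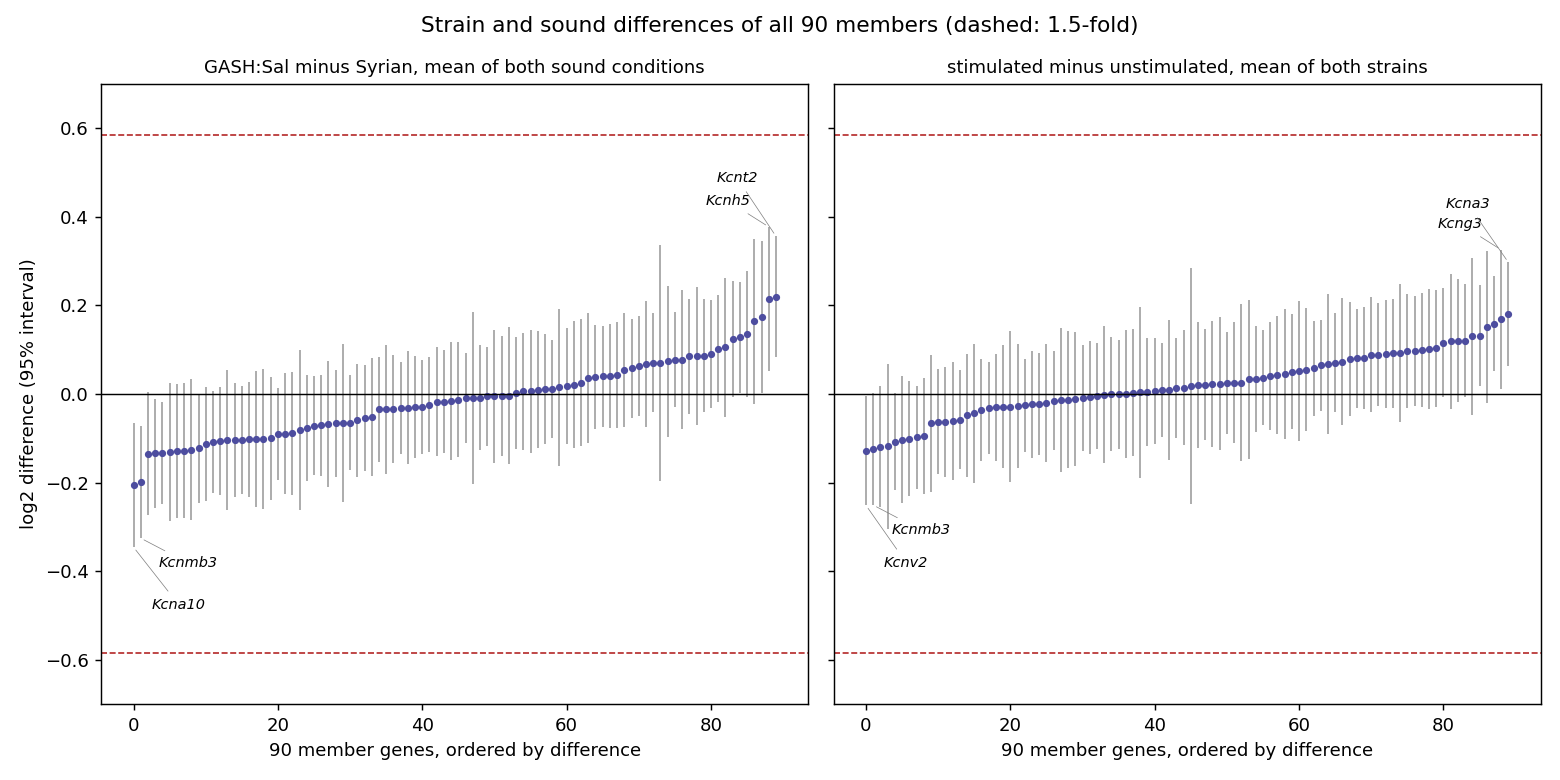
Log2 difference of each of the 90 channel genes with its 95% interval (limma), for GASH:Sal minus Syrian (left) and stimulated minus unstimulated (right), genes ordered by size of difference; dashed lines mark 1.5-fold. All intervals lie inside the dashed lines, with farthest bounds of 1.30-fold (left) and 1.25-fold (right).

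Counts at an unadjusted p under 0.05 are read against the share of all genes that reached it. They came to 3 of 90 for sound in GASH:Sal (all genes 4.46%), 7 for sound in Syrian (6.64%), 5 for strain in stimulated animals (5.42%), 3 for strain in unstimulated animals (6.02%) and 1 for the interaction (3.68%). Averaged over the other factor, they came to 8 for strain (7.99%) and 5 for sound (7.39%). Directions were split as well: 50 members lay above 0 for sound in GASH:Sal, where 55.8% of all genes did, and 54 for sound in Syrian animals, where 57.5% did. The median member difference was 0.03 and 0.02 on the log2 scale in these comparisons. For strain, 41 members lay above 0 in stimulated animals (all genes 44.0%) and 36 in unstimulated animals (45.8%), with medians of -0.03 and -0.02. Centring each array on its median turned the last of these counts to 47 of 90 and the share of all genes to 55.5%. For strain averaged over both conditions the same step turned 37 of 90 to 48, and 42.6% of all genes to 53.5%. Without both arrays, 55 members lay above 0 for sound in GASH:Sal and 43 for sound in Syrian animals, with medians of 0.03 and -0.002. For strain, 49 then lay above 0 in stimulated and 33 in unstimulated animals, with medians of 0.01 and -0.04. Shares of all genes are not given for that setting.

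Kcna1 (probe set 10548047) encodes the low-voltage-activated Kv1 subunit whose loss causes seizures in mice. Its signal, given as lowest, median and highest array, was 5.71, 5.81 and 5.96 in stimulated GASH:Sal, 5.76, 5.86 and 5.93 in unstimulated GASH:Sal, 5.71, 5.91 and 6.19 in stimulated Syrian and 5.79, 5.98 and 6.01 in unstimulated Syrian animals. All 4 ranges overlapped. The strain difference was -0.10 in stimulated animals (95% interval -0.25 to 0.04, adjusted p = 0.901) and -0.08 in unstimulated animals (-0.22 to 0.07, adjusted p = 0.92). For sound it was -0.04 in GASH:Sal (-0.19 to 0.11) and -0.01 in Syrian animals (-0.16 to 0.14), with values of 0.02 and -0.10 in label series B and A of GASH:Sal animals. Without both arrays the strain difference after sound was -0.06.

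Kcnc1 (probe set 10553261) encodes a fast, high-voltage-activated Kv3 subunit typical of auditory neurons. It read 5.71, 6.09 and 6.56 in stimulated GASH:Sal, 5.84, 6.16 and 6.65 in unstimulated GASH:Sal, 5.79, 6.01 and 6.40 in stimulated Syrian and 5.71, 6.02 and 6.33 in unstimulated Syrian animals. The ranges of all 4 groups overlapped. The sound difference was -0.07 in GASH:Sal (-0.24 to 0.10) and 0.03 in Syrian animals (-0.14 to 0.20), and the strain difference was 0.05 in stimulated (-0.12 to 0.22) and 0.15 in unstimulated animals (-0.02 to 0.32). Without both arrays the sound difference in GASH:Sal was -0.02 and the strain difference in unstimulated animals 0.10. Within each group the high and the low arrays belonged to different label series, described further on. The other measured Kv3 genes are Kcnc2 and Kcnc4, and neither passed. Kcnc2 differed by -0.05 between strains after sound and by -0.09 without it, and Kcnc4 by 0.13 and 0.02, the last being 0.39 in label series B, -0.36 in series A and -0.10 without both arrays.

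**Figure D2:**
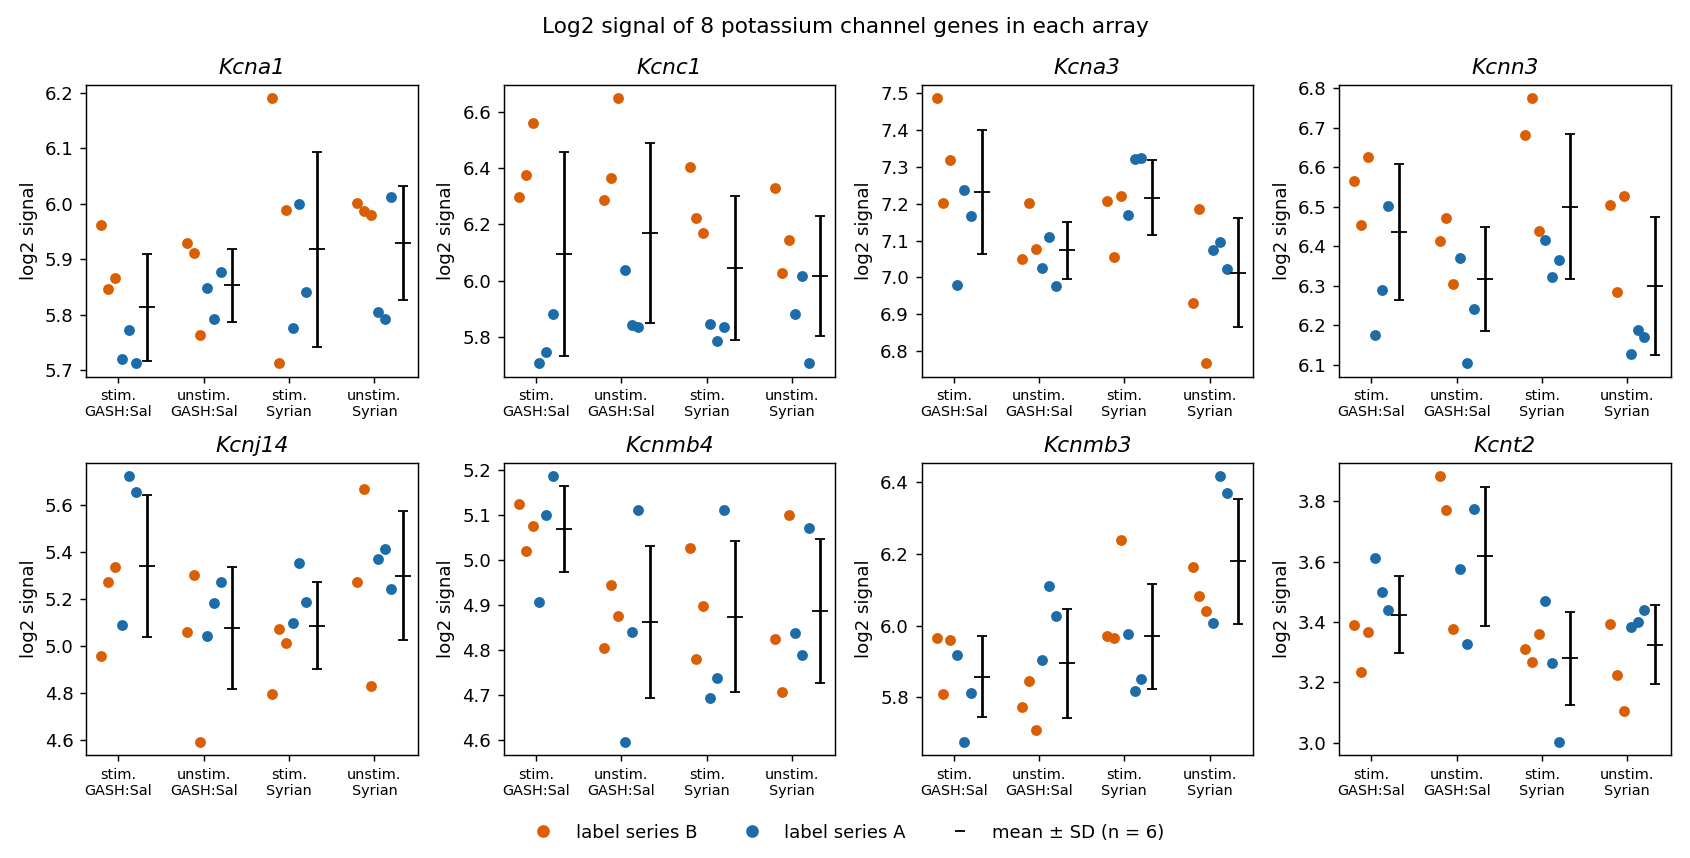
Log2 signal of 8 potassium channel genes, 1 panel per gene, in each of the 24 arrays by group; colours mark the 2 label series, and the black marks give mean ± SD (n = 6). Groups overlap in every panel, and in the Kcnc1 panel label series B (6.03 to 6.65) lies above label series A (5.71 to 6.04) in each group.

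Among the other Kv1 genes, Kcna3 and Kcna4 had the lowest p-values for sound. Kcna3 (probe set 10495183), whose channel is best known from lymphocytes and microglia and is also found at synapses, read 6.98, 7.22 and 7.48 in stimulated GASH:Sal, against 6.98, 7.06 and 7.20 in unstimulated GASH:Sal animals. In Syrian animals it read 7.05, 7.21 and 7.32 after sound and 6.77, 7.05 and 7.19 without it. Stimulated arrays were mostly higher, 11 of 12 above the unstimulated mean, but the ranges overlapped in both strains. Averaged over the strains the difference was 0.18 (95% interval 0.06 to 0.30, limma unadjusted p = 0.00366, adjusted p = 0.453), with 0.21 in label series B and 0.15 in series A. Of the microglia markers 3 of 5 lay above 0, with a median of 0.01 and mean levels over the list of 4.44 to 4.80 in stimulated and 4.42 to 4.68 in unstimulated arrays, and their part in the Kcna3 value was not tested. Kcna4, an inactivating Kv1 subunit, differed by 0.22 for sound in Syrian animals (0.04 to 0.40, adjusted p = 0.719), with 0.35 in label series B and 0.08 in series A, and by 0.02 in GASH:Sal (-0.03 without both arrays).

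Kcna10 had the lowest p of any member for strain after sound. It is a Kv1 subunit known from inner ear hair cells of mice. It read 4.33, 4.60 and 5.04 in stimulated GASH:Sal and 4.68, 4.84 and 5.20 in stimulated Syrian animals, a difference of -0.26 (-0.46 to -0.06, adjusted p = 0.896). In unstimulated animals it read 4.57, 4.69 and 4.89 in GASH:Sal against 4.69, 4.82 and 5.05 in Syrian hamsters, a difference of -0.15 (-0.35 to 0.05). Signals of the strains overlapped in both conditions, and 2 of 12 GASH:Sal arrays lay above the Syrian mean. Averaged over both conditions the difference was -0.21 (adjusted p = 0.491), with -0.25 in label series B and -0.16 in series A. Kcna2 and Kcna6, which can join Kcna1 in Kv1 channels, differed by 0.14 and 0.08 between strains after sound and by 0.03 and 0.07 without it. Stimulated Syrian 4 was the lowest array of its group for Kcna2 (6.96), and without both arrays the Kcna2 difference was 0.06 after sound and 0.09 without it, and that of Kcna6 0.02 without sound. Across the 8 Kcna genes the strain difference was below 0 for 5 after sound (median -0.12) and for 4 without sound (median 0.00). Without both arrays the median after sound was -0.08. Kcnab2, an auxiliary subunit of Kv1 channels, differed by 0.01 after sound and 0.11 without it.

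The Kv2 subunit Kcnb2 and the silent subunits, which form no channel alone but alter those of Kv2, were read next. Kcnb2 read 4.45, 4.77 and 4.91 in stimulated GASH:Sal and 4.23, 4.43 and 4.74 in stimulated Syrian animals, a difference of 0.25 (0.03 to 0.48, adjusted p = 0.896) that was 0.40 in label series B and 0.10 in series A. The ranges overlapped, and without sound the difference was -0.04. Kcng3, a silent subunit, differed by 0.23 for sound in Syrian animals, where stimulated Syrian 4 alone read 4.62 and the other stimulated arrays 3.70 to 3.93. Without both arrays, the difference was 0.10. Kcng4 differed by -0.22 between strains without sound (-0.44 to 0.00). Kcnv2, also a silent subunit, differed by -0.13 for sound averaged over both strains (-0.25 to -0.01, adjusted p = 0.655), a value of -0.03 in label series B and -0.23 in series A.

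Genes of the A-type current, the Kv4 subunits and their calcium-binding partners of the Kcnip family, are given for strain. Kcnd2 differed by 0.18 after sound (-0.01 to 0.36) and by 0.07 without it, Kcnd3 by 0.04 and 0.13, and all 3 Kcnd genes were above 0 in both conditions. Without both arrays all 3 stayed above 0, and Kcnd2 differed by 0.12 after sound and 0.14 without it. Kcnip1 and Kcnip4 had unadjusted p-values under 0.05 when both conditions were averaged, with differences of 0.13 (0.00 to 0.25, adjusted p = 0.617) and 0.17 (0.00 to 0.35, adjusted p = 0.618). Within the label series Kcnip1 differed by 0.16 in B and 0.10 in A, and Kcnip4 by 0.26 in B and 0.09 in A.

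The muscarine-sensitive M-current genes and the Kcnh genes also stayed below the threshold. Kcnq3, an M-current subunit linked to neonatal epilepsy, read 7.0, 7.42 and 7.64 in unstimulated GASH:Sal against 7.44, 7.47 and 7.88 in unstimulated Syrian animals, a difference of -0.20 (-0.42 to 0.02, adjusted p = 0.816). The ranges overlapped. It became -0.10 without both arrays, and after sound it was 0.00 (-0.22 to 0.22). Kcnq5, also an M-current subunit, differed by 0.14 for sound in GASH:Sal and 0.06 in Syrian animals, the last being 0.11 without both arrays. Kcnh5 (probe set 10400989), a channel of the ether-à-go-go type, read 7.04, 7.08 and 7.27 in stimulated GASH:Sal and 6.65, 7.19 and 7.46 in unstimulated GASH:Sal animals. It read 6.34, 7.05 and 7.15 in stimulated Syrian and 6.74, 6.94 and 7.03 in unstimulated Syrian animals.

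For Kcnh5 both arrays that stood apart were the lowest arrays of their groups. Averaged over both conditions the difference was 0.21 (0.05 to 0.38, unadjusted p = 0.0114, adjusted p = 0.56), and 11 of 12 GASH:Sal arrays lay above the Syrian mean. In unstimulated animals it was 0.22 with all arrays (adjusted p = 0.813) and 0.33 without unstimulated GASH:Sal 6 and stimulated Syrian 4 (adjusted p = 0.0488). In stimulated animals it was 0.21 with all arrays and 0.09 without them. Kcnh7, a channel of the ether-à-go-go related type, differed by 0.26 after sound (0.00 to 0.52, adjusted p = 0.901) and by 0.07 without it. Without both arrays these differences were 0.21 and 0.20. For sound in GASH:Sal the Kcnh genes spanned -0.10 to 0.00 with all arrays and -0.16 to 0.07 without both arrays, when 2 of 7 lay above 0.

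Among the inward rectifiers, which hold the resting potential, Kcnj14 gave the lowest p of any member for the interaction of strain and sound. Kcnj14 (probe set 10563407), a classical inward rectifier, read 4.96, 5.30 and 5.72 in stimulated GASH:Sal and 4.59, 5.12 and 5.30 in unstimulated GASH:Sal animals. In Syrian animals the order was turned, with 4.80, 5.09 and 5.35 after sound and 4.83, 5.32 and 5.67 without it. All groups overlapped. The sound difference was 0.26 in GASH:Sal (0.01 to 0.51) and -0.21 in Syrian animals (-0.46 to 0.04), so that the responses differed by 0.48 (0.12 to 0.83, unadjusted p = 0.0102, adjusted p = 1). That difference was 0.50 in label series B and 0.45 in series A, and 0.35 without both arrays. Kcnj14 is also the 1 member whose symbol was not among the hamster gene symbols used for checking.

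No other inward rectifier came as close to the threshold for the interaction. For sound averaged over both strains, 13 of 15 Kcnj genes lay above 0, with a median of 0.06 and none past an unadjusted p of 0.05, where 58.3% of all genes lay above 0. Without both arrays the count was again 13, with the sign of 2 genes turned. For strain without sound, 12 of 15 lay below 0 (median -0.05), and 11 without both arrays, where 45.8% of all genes lay above it. The G-protein-gated subunits Kcnj3, Kcnj6 and Kcnj9, which carry inhibition by transmitters, differed by 0.07, -0.01 and 0.13 for sound in GASH:Sal and by 0.07, -0.02 and 0.04 in Syrian animals. Without both arrays Kcnj3 differed by -0.03 in GASH:Sal and 0.12 in Syrian animals. Kcnj12, a classical inward rectifier, differed by -0.18 between strains without sound (-0.34 to -0.02, adjusted p = 0.785) and by -0.09 after it. Kcnj2, of the same class, differed by 0.21 for sound in Syrian animals (0.02 to 0.40). Kcnj8, the pore of ATP-sensitive channels in pericytes, differed by -0.20 after sound (-0.37 to -0.02, adjusted p = 0.90), or -0.13 without both arrays, and by -0.07 without sound.

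For Kcnj8, the endothelial and pericyte markers read as follows after sound: 2 of 6 lay above 0, their median difference was -0.09, and their mean levels were 4.98 to 5.26 in stimulated GASH:Sal and 5.04 to 5.37 in stimulated Syrian arrays. Their part in the Kcnj8 value was not tested. Kcnj10, the inward rectifier of astrocytes that clears potassium, had 1 array far above the rest of its group. Stimulated Syrian 4 read 6.24 and the other stimulated Syrian arrays 5.25 to 5.46. The sound difference in Syrian animals was 0.16 with all arrays and 0.01 without both arrays. The astrocyte markers of stimulated Syrian 4 had a mean of 6.48, against 6.26 to 6.41 in the rest of its group, and its choroid plexus markers 4.54, against 4.06 to 4.24. Other lists were high in this array as well. Oligodendrocyte markers read 6.23 (others 5.93 to 6.08), endothelial and pericyte markers 5.37 (5.04 to 5.22) and cerebellar markers 5.20 (4.86 to 5.08). Markers of inferior colliculus neurons and auditory brainstem were also the highest of the group. Its neuron markers were the lowest, at 8.12 (8.20 to 8.29), and microglia, telencephalon and blood lay within the others.

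Kcnj13, the inward rectifier of choroid plexus epithelium, had the largest spread within groups of any member, an SD of 0.373 where the median member had 0.168 and the median gene 0.161. It read 4.30, 4.68 and 5.13 in stimulated GASH:Sal, 4.30, 4.43 and 5.16 in unstimulated GASH:Sal, 4.17, 4.48 and 5.21 in stimulated Syrian and 3.97, 4.66 and 5.03 in unstimulated Syrian animals. Each group spanned most of the range of the gene. The choroid plexus markers were dim, from the 19.3rd percentile of signal (Ttr) to the 41.1st (Foxj1), and their mean levels overlapped between all groups.

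Of the 14 Kcnk genes, which encode the leak channels that set the resting conductance, Kcnk1 had the lowest p for sound. Kcnk1 (probe set 10576581) read 6.06, 6.26 and 6.37 in stimulated Syrian and 5.80, 6.04 and 6.21 in unstimulated Syrian animals, a difference of 0.20 (0.04 to 0.36, unadjusted p = 0.0166, adjusted p = 0.719), with 0.27 in label series B and 0.13 in series A. All 6 stimulated arrays lay above the unstimulated mean, yet the ranges overlapped. In GASH:Sal animals it differed by 0.06 (-0.10 to 0.22), and the responses of the strains differed by -0.14 (-0.37 to 0.09). The stretch-activated channel gene Kcnk2 and the acid-sensitive Kcnk3 had sound differences of -0.06 and 0.00 in GASH:Sal and -0.01 and -0.06 in Syrian animals. Kcnk9, the other acid-sensitive leak channel, differed by 0.19 between strains without sound (-0.01 to 0.39, adjusted p = 0.813), a value of 0.36 in label series B, 0.03 in series A and 0.13 without both arrays.

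Channels opened by calcium or sodium supplied the members with the lowest p for strain in unstimulated animals and for strain averaged over both conditions. Kcnmb3 (probe set 10497682), an auxiliary subunit of the large-conductance calcium-activated BK channel, read 5.71, 5.88 and 6.11 in unstimulated GASH:Sal and 6.01, 6.12 and 6.42 in unstimulated Syrian animals. The top of the GASH:Sal range reached into the Syrian range, although 0 of 6 GASH:Sal arrays exceeded the Syrian mean. The difference was -0.28 (-0.46 to -0.10, unadjusted p = 0.00294, adjusted p = 0.723), with -0.32 in label series B and -0.25 in series A. After sound, it read 5.68, 5.87 and 5.97 in GASH:Sal and 5.82, 5.97 and 6.24 in Syrian animals, a difference of -0.11 (-0.29 to 0.07). For sound in Syrian animals Kcnmb3 differed by -0.21 (-0.39 to -0.03, adjusted p = 0.726), with -0.04 in label series B and -0.38 in series A, a comparison that shares the unstimulated Syrian arrays with the strain comparison.

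Kcnt2 (probe set 10350438), a sodium-activated potassium channel, had a strain difference of opposite sign. It read 3.33, 3.67 and 3.88 in unstimulated GASH:Sal and 3.10, 3.39 and 3.44 in unstimulated Syrian animals, a difference of 0.29 (0.10 to 0.49, unadjusted p = 0.00407, adjusted p = 0.723) that was 0.44 in label series B and 0.15 in series A. In stimulated animals it read 3.24, 3.42 and 3.61 in GASH:Sal and 3.00, 3.29 and 3.47 in Syrian hamsters, a difference of 0.15 (-0.05 to 0.34). The ranges overlapped in both conditions. Averaged over both, 11 of 12 GASH:Sal arrays lay above the Syrian mean and the difference was 0.22 (0.08 to 0.36, adjusted p = 0.422), with 0.23 in label series B and 0.21 in series A. Kcnt2 was dim, at the 15.9th percentile of signal. Its relative Kcnt1, in which gain-of-function variants cause severe childhood epilepsies, differed by 0.07 after sound and -0.04 without it.

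Kcnmb4 (probe set 10372528), the BK subunit that predominates in neurons, had the lowest p for sound in GASH:Sal. It read 4.91, 5.09 and 5.18 in stimulated GASH:Sal and 4.60, 4.86 and 5.11 in unstimulated GASH:Sal animals. Each stimulated array exceeded the unstimulated mean, and the ranges overlapped. The difference was 0.21 (0.02 to 0.39, unadjusted p = 0.0278, adjusted p = 0.999), with 0.20 in label series B and 0.21 in series A. In Syrian animals, with 4.69, 4.84 and 5.11 after sound against 4.70, 4.83 and 5.10 without it, the difference was -0.01, and the test of the strains against each other gave 0.22 (-0.04 to 0.48, adjusted p = 1). Kcnma1, the pore of the same channel, differed by 0.08 for sound in GASH:Sal (-0.09 to 0.25) and by 0.00 in Syrian animals, values of 0.02 and 0.08 without both arrays.

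Among the small-conductance calcium-activated channels, Kcnn3 (probe set 10493555) read 6.32, 6.43 and 6.77 in stimulated Syrian and 6.13, 6.24 and 6.53 in unstimulated Syrian animals. The difference was 0.20 (0.05 to 0.35, unadjusted p = 0.0118, adjusted p = 0.719), and 6 of 6 stimulated arrays lay above the unstimulated mean, with ranges that overlapped. In GASH:Sal animals it read 6.17, 6.48 and 6.63 after sound and 6.10, 6.34 and 6.47 without it, a difference of 0.12 (-0.03 to 0.27). Kcnn2 differed by 0.03 in GASH:Sal (0.10 without both arrays) and by 0.01 in Syrian animals. All 4 Kcnn genes lay above 0 for sound in both strains, but Kcnn1 did so by under 0.01 in GASH:Sal, and in Syrian animals its difference was 0.05 with all arrays and -0.06 without both arrays.

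The 3 measured Hcn genes, which encode the pacemaker current, gave no call for strain or sound. For sound in GASH:Sal all 3 lay below 0, at -0.15 for Hcn4 (-0.32 to 0.01, adjusted p = 0.999), -0.09 for Hcn2 and -0.01 for Hcn3. In Syrian animals they differed by 0.03, -0.12 and 0.04. Hcn4 (probe set 10585851) read 6.17, 6.46 and 6.81 in stimulated GASH:Sal against 6.49, 6.55 and 7.07 in unstimulated GASH:Sal animals, where the value of 7.07 came from unstimulated GASH:Sal 6. Without both arrays the values were -0.10 for Hcn4, 0.03 for Hcn2 and 0.04 for Hcn3 in GASH:Sal, so that 2 of 3 lay above 0, and unstimulated GASH:Sal 6 was also the highest array of its group for Hcn2 (7.18). The Hcn4 difference was -0.01 in label series B and -0.30 in series A. Between strains the Hcn genes spanned -0.10 to 0.04 after sound and 0.01 to 0.08 without it, or -0.09 to 0.03 and -0.11 to 0.03 without both arrays.

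The subfamilies can be set side by side by their medians. For sound in GASH:Sal the median difference was -0.02 for Kcna, 0.03 for Kcnc, 0.09 for Kcnq, 0.07 for Kcnj, 0.02 for Kcnk and -0.09 for Hcn genes. Without both arrays the Hcn median was 0.03 and the Kcnq median -0.01. For sound in Syrian animals the medians lay between 0.03 and 0.05 with all arrays, and between -0.06 (Kcnq) and 0.01 (Kcnj) without both arrays. For strain they ran from -0.12 (Kcna) to 0.05 (Kcnc) after sound and from -0.05 (Kcnj) to 0.02 (Kcnc) without it, the last being -0.10 without both arrays. Families of 3 genes have medians that rest on a single gene, and no test between families was made. Of the smaller families, the 4 Kcne genes, which encode single-span auxiliary subunits, all lay below 0 for strain averaged over both conditions (median -0.10, or -0.06 without both arrays). Over all genes 42.6% lay above 0 there. The 3 Kcns and 2 Kcnv genes also all lay below 0, and the 3 Kcnd and 2 Kcnt genes above it (1 Kcnt gene without both arrays).

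**Figure D3:**
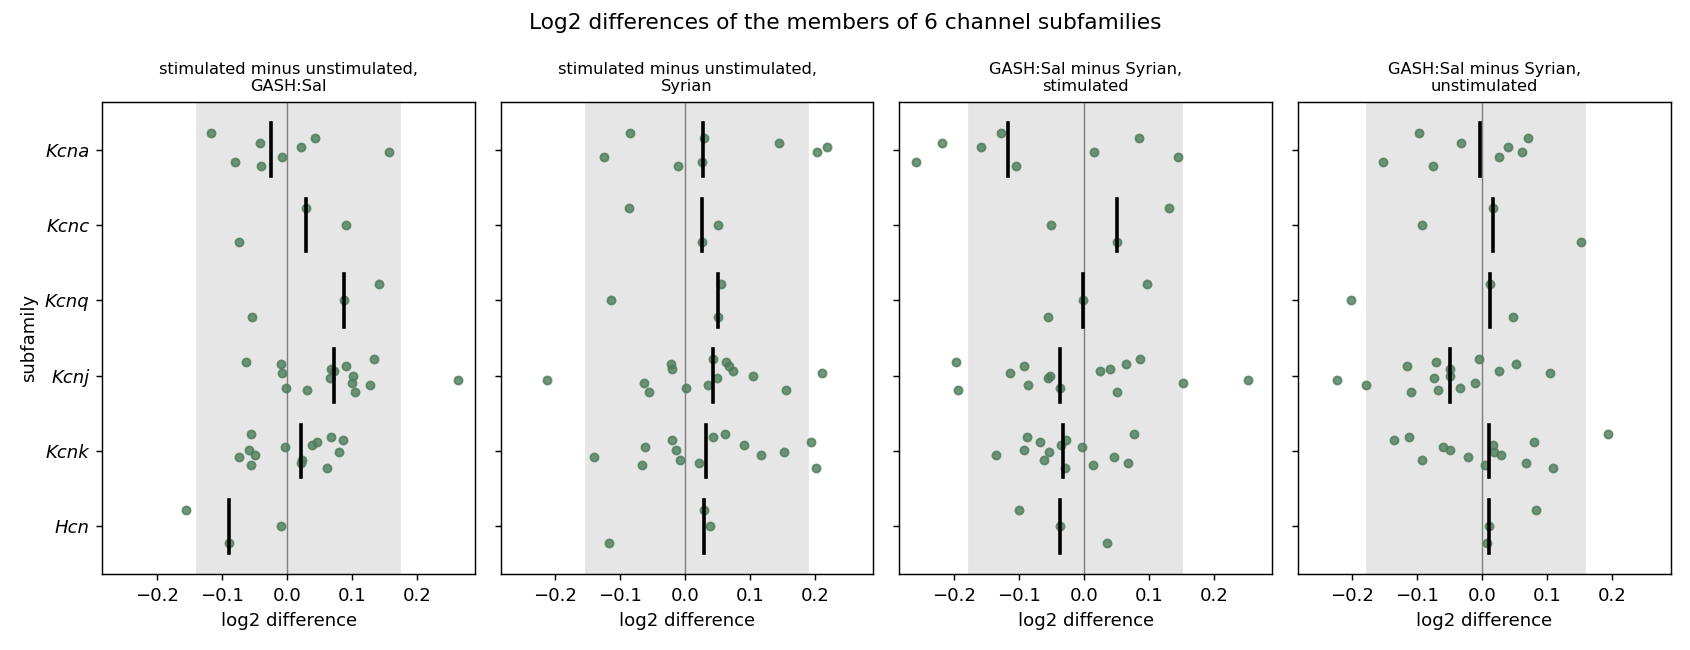
Log2 differences of the genes of 6 channel subfamilies (points) with the subfamily median (black bar) for sound in each strain and for strain in each sound condition; the grey band holds the middle 90% of single genes over all 19938 and is a scale for the points, not for the medians. The medians run from -0.12 (Kcna, strain after sound) to 0.09 (Kcnq, sound in GASH:Sal).

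Genes for proteins that anchor, traffic or modify these channels were followed in a list of 22. None passed the threshold in the 7 comparisons. For strain, 18 of 22 lay above 0 after sound and 15 without it, where 44.0% and 45.8% of all genes did. Cntnap2, which clusters Kv1 channels beside the nodes of Ranvier, differed by 0.21 without sound and by 0.13 averaged over both conditions, and Ank3, the ankyrin that anchors Kcnq channels at the axon start, by 0.15 and 0.11. After sound, Pex5l, the trafficking partner of Hcn channels, differed by 0.17 and the Kv2 partner Vapb by 0.19. Cask, a scaffold of synapses, differed by 0.17 for strain averaged over both conditions, and Fmr1, whose protein binds the Kcnt1 channel in mice, by 0.23 for sound averaged over both strains. Each of these had an unadjusted p under 0.05 and an adjusted p above it. Counts at that unadjusted p were 2 of 22 for strain after sound (all genes 5.42%), 2 without sound (6.02%) and 4 averaged (7.99%). For sound they were 0 in GASH:Sal (4.46%), 1 in Syrian animals (6.64%) and 1 averaged (7.39%). Neuron markers lay above 0 as well for strain after sound, 6 of 6 with a median of 0.12. Their mean levels were 8.26 to 8.43 in stimulated GASH:Sal and 8.12 to 8.29 in stimulated Syrian arrays. The level of 8.12 came from stimulated Syrian 4, and the others of its group read 8.20 to 8.29. Without sound 3 of 6 lay above 0, with a median of 0.01, and averaged over both conditions 6 of 6, with a median of 0.07. The part of these markers in the partner values was not tested, and differences without both arrays are not given for markers or partners.

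The samples also differed by how they were named. Between label series B and A, which were balanced over the groups, 11 of the 90 channel genes passed an adjusted p of 0.05, where 6.89% of all genes did, and all 11 were higher in series B, where 5.87% of all genes were called in that direction. At an unadjusted p under 0.05 there were 25 of 90, where 19.9% of all genes reached it. The array mean over all members was 5.38 to 5.49 in series B and 5.31 to 5.38 in series A. This comparison was taken up after the data had been seen.

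The genes were Kcnc1, Kcnk9, Kcnt1, Kcnab2, Hcn4, Kcnab3, Kcnh2, Kcnn3, Hcn2, Kcnk4 and Kcnip1. Kcnc1 read 6.03, 6.31 and 6.65 in series B and 5.71, 5.84 and 6.04 in series A, so that the top of series A just passed the bottom of series B, and differed by 0.47 (0.35 to 0.59, adjusted p = 8.45e-06). Kcnk9, the acid-sensitive leak channel, read 6.84, 7.23 and 7.59 in series B and 6.54, 6.64 and 6.88 in series A, a difference of 0.51 (0.36 to 0.65, adjusted p = 3.09e-05). The ranges of these genes met only at their ends. Kcnt1 differed by 0.40 (0.28 to 0.53, adjusted p = 0.000103). For each of these 3, all 12 arrays of series B lay above the series A mean.

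Kcnab2 (probe set 10518927), an auxiliary subunit of Kv1 channels, was the 1 member whose series did not overlap, where 0.291% of all genes had series apart. It read 6.31, 6.40 and 6.73 in series B and 5.96, 6.15 and 6.26 in series A, a difference of 0.32 (0.21 to 0.44, adjusted p = 0.000356). Its relative Kcnab3 differed by 0.35, the pacemaker genes Hcn4 by 0.34 and Hcn2 by 0.31, and Kcnh2, which encodes the ether-à-go-go related channel, by 0.30. Kcnn3 differed by 0.23, Kcnip1 by 0.20 and Kcnk4, a stretch-activated leak channel, by 0.18. For each of the 11 the mean was higher in series B in 4 of 4 groups, and for Hcn2, Hcn4, Kcnab2, Kcnc1, Kcnk9 and Kcnt1 the series did not overlap within any group. The call of Kcnip1 (adjusted p = 0.0486) rested on the threshold, since leaving out 1 array kept it only where that array was stimulated Syrian 1 or 5 or stimulated GASH:Sal 3, 4 or 6. Kcna1 differed by 0.10 (-0.01 to 0.20, adjusted p = 0.286), and Hcn3 by -0.05.

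**Figure D4:**
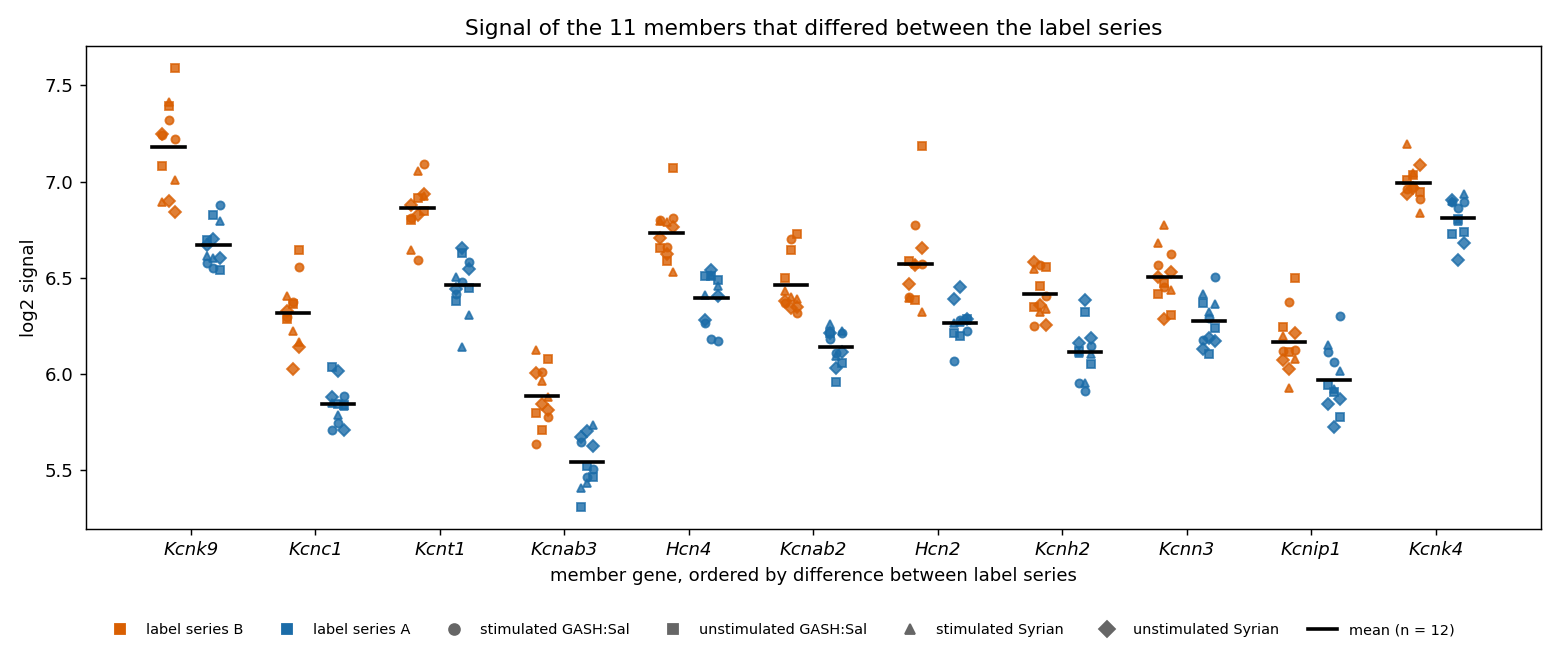
Log2 signal of the 11 channel genes that differed between the label series, with series B left of series A for each gene; symbols mark the 4 groups and bars the mean of 12 arrays. Series B lies higher for all 11 genes, by 0.18 (Kcnk4) to 0.51 (Kcnk9), and has the higher mean in every group; heights of different genes are not comparable.

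Calls between the series were concentrated among bright genes. Among the brightest 4985 genes 18.6% were called, and 10 of the 34 members there (29.4%). Among the next 4984 genes 5.40% were called, and 1 of 25 members (4%), and no dimmer member was called. Among the partner genes Dlg4, a postsynaptic scaffold that binds Kv1 channels, differed by 0.34, Abcc8, the sulphonylurea receptor, by 0.24 and Nedd4l, a ubiquitin ligase of Kcnq channels, by 0.22, which made 3 of 22 called. Marker genes moved with the series as well. Of the cerebellar markers 7 of 8 lay above 0 with 1 called (Cbln1, 0.37), and their mean levels were 4.86 to 5.20 in series B and 4.77 to 5.08 in series A. Of the endothelial and pericyte markers 6 of 6 lay above 0 with 1 called, at 5.06 to 5.37 in series B and 4.96 to 5.13 in series A. Of the neuron markers 4 of 6 lay above 0 with 2 called, at 8.12 to 8.53 in series B and 8.14 to 8.38 in series A. The oligodendrocyte markers had a median difference of 0.16, with 3 of 5 above 0 and 2 called, at 6.01 to 6.23 in series B and 5.85 to 6.18 in series A. The lists of astrocytes (5 of 6 above 0), inferior colliculus neurons (4 of 7) and blood (the 1 measured gene below 0) had 1 called each, and those of microglia, choroid plexus, telencephalon and auditory brainstem 0. The part of any of these lists in the channel differences was not tested.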

How the data were processed

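Total RNA of the inferior colliculus was measured on 24 arrays, 1 per animal. The authors deposited log2 signals after RMA (background correction, normalisation between arrays and summary per probe set; version not given in the sources used here). Values ran from 1.20 to 14.3, array medians from 4.50 to 4.65, and 0 columns were left out. Of 35556 probe sets, 21789 had 1 gene symbol, 1621 several and 12146 none listed. The brightest probe set per gene was kept, which gave 19938 genes, without a filter on dim genes. Symbols are those of the mouse array's annotation, and 89 of 90 members matched a hamster RefSeq symbol (names only). No genome of the array's design was used, so no coordinates or sequences are given.

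Differences were estimated with limma 3.58.1 (R 4.3.3) in one fit of all arrays, with the 4 groups and the label series as terms (19 residual degrees of freedom). P-values were two-sided with Benjamini-Hochberg adjustment over all genes and a threshold of 0.05. They set each difference against the spread between animals within groups, estimated in common for the 4 groups. Intervals are unadjusted 95% intervals. The method was tested on simulated data with larger differences than any member had here. That test therefore does not show how often differences of the sizes reported here would be found. The comparisons share arrays and are not independent. The members, gene lists and tests were chosen with earlier results of these data known. Named genes are a fixed set of 28 measured members with known roles, members past the threshold, the 5 members with the lowest p in each comparison, the most variable members, and partners at an unadjusted p under 0.05. Other normalisations, models, filters and subsets of arrays were tried. Reading the label series as a comparison and leaving out both arrays that stood apart were chosen after seeing the data.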

Additional observations from a re-analysis of the deposited data

Results flagged for a closer look

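In 192 groups of 6 arrays (48 named genes), 11 held an array whose gap to the nearest other value was a large part of the group's range by Dixon's criterion. Chance alone marks about 1 in 20 groups. Of the 11, 6 fell on the arrays that stood apart. Stimulated Syrian 4 was the highest or lowest array of its group for 62.2% of members and 58.7% of all genes. For unstimulated GASH:Sal 6 these shares were 56.7% and 54.0%, so extreme values there were not particular to the channel genes. In stimulated Syrian 4, Kcnj10 read 6.24 (others 5.25 to 5.46), Kcng4 5.53 (others 4.89 to 5.08) and Kcng3 4.62 (others 3.70 to 3.93). In unstimulated GASH:Sal 6, Hcn4 read 7.07 (others 6.49 to 6.66), Kcnh5 6.65 (others 7.17 to 7.46) and Kcnj14 4.59 (others 5.04 to 5.30).

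The rest came from other arrays. Kcng4 read 5.46 in stimulated GASH:Sal 2 (others 4.98 to 5.08), and Kcng3 read 3.32 in unstimulated GASH:Sal 1 (others 3.70 to 3.84). In unstimulated Syrian 5, Kcnh7 read 5.11 (others 5.44 to 5.63) and Kcnip4 5.45 (others 5.71 to 5.86). Kcnj10 read 5.53 in unstimulated Syrian 4 (others 5.30 to 5.37). Kcng3 and Kcng4, silent subunits of Kv2 channels, and Kcnj10, the astrocyte rectifier, appear more than once.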

How the results depend on the processing

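The count of channel genes called stayed at 0 in all 7 comparisons under every alternative but 2. Without both arrays that stood apart it was 1 (Kcnh5) for strain in unstimulated animals, and in label series A alone it was 1 (Kcnip4, adjusted p = 0.0240) for sound averaged over the strains. With all arrays the sound difference of Kcnip4 was 0.15 averaged over the strains, 0.13 in GASH:Sal and 0.17 in Syrian animals, with no call. Without both arrays the highest sound differences of the Kcnip family were 0.17 in GASH:Sal and 0.31 in Syrian animals. The median of the members moved by less than the spread between arrays. The count of all genes called moved more. In label series A alone it was 7 for sound in GASH:Sal, 5 for sound in Syrian animals, 444 for sound averaged over strains and 0 for strain averaged over sound conditions, and in series B alone it was 0 for both averages. Sound in GASH:Sal gave 1 gene with a robust trended variance, with array weights, and among the genes at or above the median signal. Strain in unstimulated animals gave 2 with median centring, 2 among the brighter genes, 18 with array weights and 64 without both arrays that stood apart. Strain averaged over sound gave 0 without the label series term, 0 with the replicate block, 0 at a 2-fold threshold, 19 with array weights and 36 without both arrays. Sound averaged over strains gave 14 with array weights, 2 without both arrays and 0 at a 2-fold threshold.

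Leaving out 1 array gave 0 to 1 genes for sound in GASH:Sal, 0 to 13 for strain in unstimulated animals, 0 to 36 for strain averaged over sound and 1 to 12 for sound averaged over strains. Without unstimulated GASH:Sal 6 came the 13 and the 36, and without stimulated GASH:Sal 6 the 12. Same-numbered arrays did not deviate together (median correlations from -0.058 to 0.021). This cannot show whether the animals were matched by number, and they were not treated as pairs. The replicate block changed no other count.

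Over all members and alternatives, between 131 (strain after sound) and 279 (interaction) values changed sign in a comparison of the groups. They include the following. In series B alone, sound in GASH:Sal was 0.023 for Kcna1 and 0.016 for Kcnv2, the interaction of Kcna1 was 0.049, and sound averaged over strains was 0.039 for Kcnc1. In series A alone, sound in Syrian animals was 0.0021 for Kcna1 and -0.046 for Kcnc1, and Kcnc1 differed by -0.043 for strain after sound and -0.0028 for strain averaged. Without both arrays that stood apart, sound in Syrian animals was -0.0021 for Kcnc1. Leaving out 1 array gave, for sound in Syrian animals, -0.058 to 0.042 (Kcna1) and -0.022 to 0.076 (Kcnc1), for the interaction of Kcna1 -0.082 to 0.018, and for sound averaged -0.049 to 0.0010 (Kcna1) and -0.048 to 0.0015 (Kcnc1). The causes were not tested.

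Between the label series, the members called numbered 9 with quantile normalisation to 16 with array weights, and 10 to 13 leaving out 1 array. Kcnip1 lost its call with median centring, quantile normalisation and without both arrays that stood apart, and Kcnk4 and Kcnn3 with quantile normalisation, which also brought all genes above 0 to 50.3%, against 62.2% as deposited. With 6 arrays a group, the intervals of 43 to 54 of the 90 members lay within 1.2-fold in the comparisons of single groups.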
